A study of Mus musculus with 80 samples.

Results

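A set of 10 secreted signals of acute inflammation were followed in mouse liver after a single dose of carbon tetrachloride (CCl4), a solvent that hepatocytes convert into a toxic radical. The set consists of 4 CC chemokines (Ccl2, Ccl3, Ccl4 and Ccl7), 4 CXC chemokines (Cxcl1, Cxcl2, Cxcl9 and Cxcl10) and the cytokines Tnf and Il1b. These 10 genes were named by symbol, and all 10 were found among the 14560 genes of the deposited table and passed the filter on low values. The livers came from 8-week-old female C57BL/6J mice, either wild type or Adamts12-/-, which lack the secreted metalloprotease ADAMTS12 in the whole animal. Mice received 1 intraperitoneal dose of CCl4 (0.3 ml/kg, as 3% v/v in olive oil) or the oil alone, called vehicle here, and their livers were collected 4 h, 12 h or 24 h later or after 7 days. Each of the 16 groups of genotype, treatment and time held 5 livers, 1 per mouse, and every vehicle group shared the oil injection with its CCl4 group. Values are normalized counts, that is reads assigned to a gene divided by a size factor for the library.

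Chemokines are small secreted proteins that bind to matrix and to receptors on leukocytes and set the direction in which those cells move. In injured liver, CXCL1 and CXCL2 act on CXCR2 of neutrophils, CCL2 and CCL7 on CCR2 of monocytes, CCL3 on CCR1 of monocytes, and CXCL9 and CXCL10 on CXCR3 of activated T and NK cells. CCL4 is a close relative of CCL3 that attracts monocytes and lymphocytes. TNF and IL-1beta come largely from macrophages and monocytes and switch on NF-kB, a transcription factor that drives many chemokine genes, in the cells around them.

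A pair of knockout livers at 12 h stood with the other treatment and was left out of the tests: vehicle replicate 1 and CCl4 replicate 5. Vehicle replicate 1 held 854.5 normalized counts of Ccl2 and 1852.9 of Cxcl10, and CCl4 replicate 5 held 54.9 and 63.6. Tests therefore used 78 of the 80 libraries, with 4 livers in each knockout group at 12 h. Recovered library sizes ran from 18648557 to 64487370 reads with a median of 32744326, and a value of 0 allows up to 3 reads, which is 1.16 to 6.02 normalized counts depending on the library (counting error only). The targeted gene Adamts12 averaged 4.1 to 14.4 normalized counts in the knockout groups and 15.1 to 58.1 in the wild-type groups. With CCl4 at 12 h the means were nearly equal, 14.4 (SD 10.1) in knockout and 15.1 (SD 3.2) in wild type. Single livers of the genotypes overlapped, and the labels do not say which exons were deleted.

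Most of the chemokine genes lie in pairs of close neighbours (GRCm38). Ccl2 (chr11:82035571-82037453) and Ccl7 (chr11:82045712-82047525) are 8.258 kb apart, and Ccl3 (chr11:83647844-83649355) and Ccl4 (chr11:83662584-83664683) are 13.228 kb apart. On chromosome 5, Cxcl1 (chr5:90891241-90893115) and Cxcl2 (chr5:90903871-90905938) are 10.755 kb apart, and Cxcl9 (chr5:92321347-92328079) and Cxcl10 (chr5:92346638-92348889) are 18.558 kb apart. Tnf (chr17:35199381-35202007) and Il1b (chr2:129364570-129371139) lie elsewhere. Cxcl10 overlaps Art3 on the opposite strand, Ccl2 overlaps Gm17268 and Il1b overlaps Il1bos. The sources used here do not say whether counting used strand, so reads of overlapping genes cannot be told apart. Cxcl2 shares 5.84% of its 50-base words with Cxcl3, and reads of that stretch are uncertain. Art3 was not called in any comparison of CCl4 with vehicle, and its group means stayed at or below 80.9 normalized counts at 4 h to 24 h.

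RefSeq promoter windows (GRCm38.p6, 250 bases before to 50 after the transcription start) were found for 7 of the 10 genes, all but Ccl2, Ccl4 and Ccl7. The stretches of Cxcl1, Cxcl2 and Cxcl10 are shown because these promoters hold a match to the NF-kB consensus and because Cxcl2 and Cxcl10 were called at 4 h while Cxcl1 was not. Each is written 5′ to 3′ on the gene's strand. Capitals mark matches to the NF-kB consensus and, in Cxcl10 only, also the interferon-stimulated response element (ISRE) core at position -213 and the AP-1 motif at position -74.
Cxcl1, chr5:90891125-90891214, plus strand, positions -120 to -31: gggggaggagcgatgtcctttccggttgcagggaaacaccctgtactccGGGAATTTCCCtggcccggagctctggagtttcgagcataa
Cxcl2, chr5:90903779-90903868, plus strand, positions -120 to -31: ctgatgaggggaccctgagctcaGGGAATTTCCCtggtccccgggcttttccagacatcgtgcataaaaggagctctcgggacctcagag
Cxcl10, chr5:92348920-92349109, minus strand, positions -220 to -31: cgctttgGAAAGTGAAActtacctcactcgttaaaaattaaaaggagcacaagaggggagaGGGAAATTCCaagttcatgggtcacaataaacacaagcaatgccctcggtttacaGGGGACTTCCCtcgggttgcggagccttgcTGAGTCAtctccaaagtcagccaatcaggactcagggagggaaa
The match starts at position -71 in Cxcl1 and at position -97 in Cxcl2, and the capital letters of the pair are identical. Cxcl10 has matches from positions -159 and -104. The consensus was found on either strand in 8.46% of 32851 promoter windows of the same length. AP-1 (TGANTCA, both strands) was found in Cxcl10 and Cxcl9 and in 7.81% of all windows. In Cxcl9 the AP-1 match starts at position 31, after the transcription start. The ISRE core (GAAA, then 2 bases of any kind, then GAAA, both strands) was found in Cxcl10 and in 3.44%. The gamma-activated site (TTCNNNGAA, both strands) matched none of the 7 windows, including that of Cxcl9, against 8.3% of all. The TATA box letters (TATAAA on the gene's strand) were found in Tnf, Il1b and Cxcl9 and in 8.32% of all windows. They start at position -29 in Tnf and -31 in Il1b, but at position -195 in Cxcl9. A match is a description of these letters, and factor binding was not measured.

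**Figure D1:**
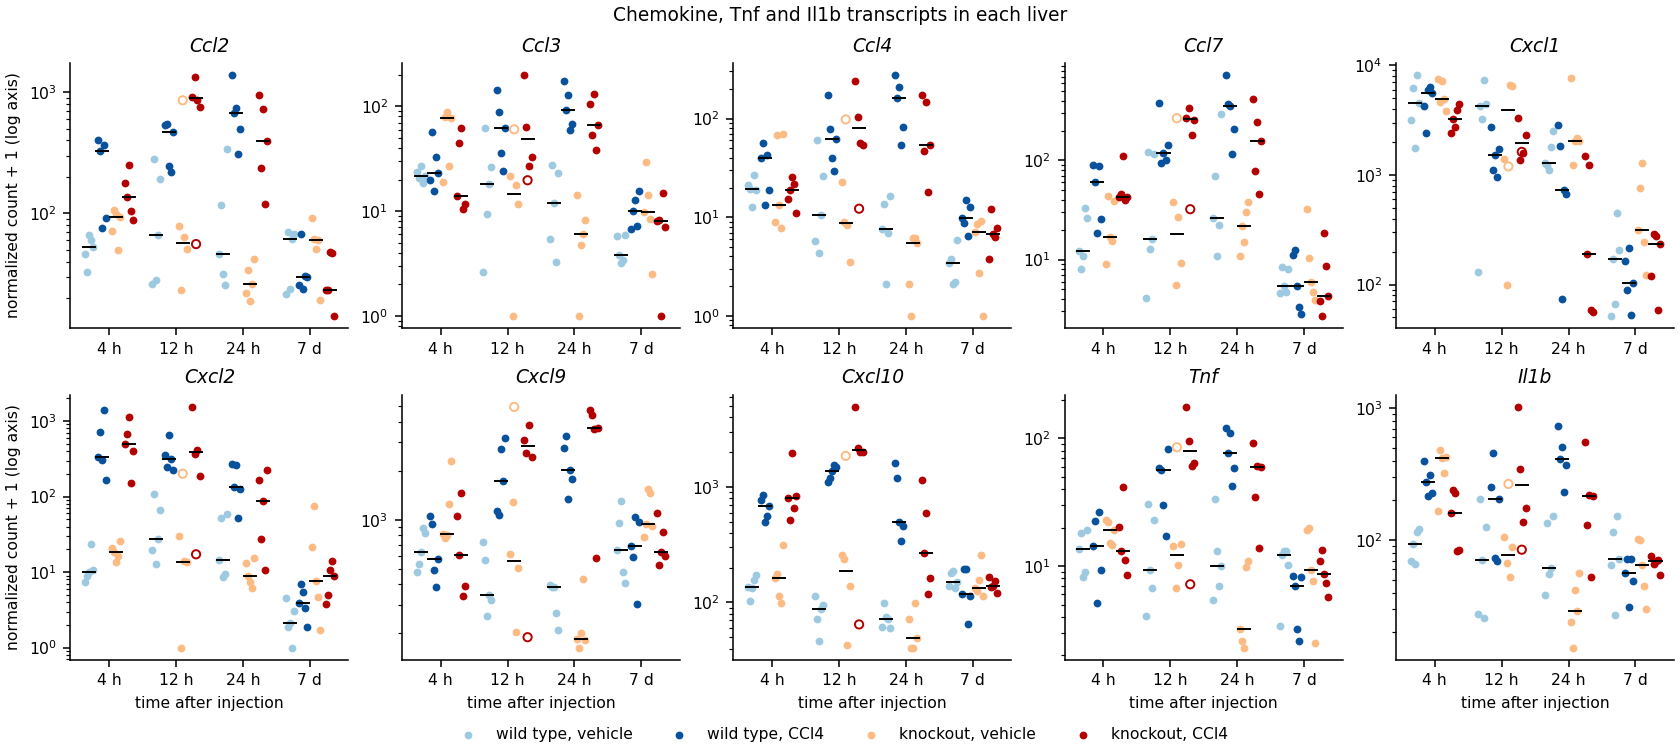
Normalized count plus 1 (log axis) of each of the 10 genes in every liver, by genotype, treatment and time. Black bars are group medians and open circles are the 2 knockout livers at 12 h left out of the tests. Cxcl2 and Cxcl10 already stand above vehicle at 4 h in both genotypes. At 7 days every gene overlaps between treatments in knockout livers, and in wild type Ccl3 and Ccl4 stand above vehicle. How many of all genes separate in this way was not counted.

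Levels can be compared between genes only per kilobase of exon. On that scale Cxcl1 had the highest median of the 10 genes in all 8 groups at 4 h and 12 h and in both vehicle groups at 24 h. It reached 2414 normalized counts per kb in wild-type vehicle livers at 4 h, where Cxcl9 stood at 210.0 and Cxcl2 at 4.4. Cxcl9 was highest in both CCl4 groups at 24 h (668.7 per kb in wild type and 1209 in knockout) and in all 4 groups at 7 days. Tnf was low throughout, with a group median of at most 47.8 per kb, in knockout CCl4 livers at 12 h.

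Of the neutrophil-directed pair, Cxcl2 had the largest change of the 10 genes at 4 h in both genotypes, while Cxcl1 was not called at that time. At 4 h, the wild-type vehicle livers held 6.3, 7.9, 9, 22.5 and 9.6 normalized counts and the CCl4 livers held 329.4, 719, 301.7, 1404.1 and 166.5. Knockout livers held 20.1, 17.6, 12.4, 15.1 and 24.7 with vehicle and 492.4, 675, 1129.5, 151.4 and 399.8 with CCl4. Every CCl4 liver was above every vehicle liver in both genotypes. The log2 change was 5.33 ± 0.74 (SE) in wild type, a 40.2-fold difference, and 4.67 ± 0.74 in knockout, 25.4-fold (limma adjusted p = 9.97e-09 and 3.56e-07). Here and below, n is 5 livers against 5, and 4 against 4 for knockout livers at 12 h. Adjusted p is limma's moderated test with Benjamini-Hochberg adjustment over 14558 genes.

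Cxcl2 was also called at 12 h and 24 h. At 12 h the change was 3.27 ± 0.74 in wild type and 5.72 ± 0.82 in knockout (limma adjusted p = 0.000123 and 3.7e-08). At 24 h it was 2.83 ± 0.74 and 2.70 ± 0.74 (limma adjusted p = 0.000986 and 0.00202). The knockout livers at 24 h spread from 9.6 to 222.7 with CCl4 and from 5.1 to 14.4 with vehicle, so the groups overlapped. In wild type they overlapped too, with 50.8 to 267.2 against 7.6 to 57.1, and the change was 1.31 (limma adjusted p = 0.52) without the wild-type mice whose number in the labels is below 7000. By 7 days Cxcl2 was between 0 and 6 in all 10 wild-type livers. In the knockout vehicle livers it was 20.8, 73.4, 6.6, 3.7 and 0.7 at that time.

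Cxcl1 did not follow its neighbour. Wild-type vehicle livers at 4 h already held 3183.6, 6269.8, 1755.7, 8150.9 and 4525.5 normalized counts, and the CCl4 livers 4253.5, 2415.5, 5989.4, 6395.3 and 5553.4, with full overlap. The change was 0.15 ± 0.84 at 4 h, -0.60 ± 0.84 at 12 h and -1.08 ± 0.84 at 24 h in wild type (limma adjusted p = 0.907, 0.556 and 0.284). Knockout livers gave -0.73 ± 0.84 at 4 h and 0.38 ± 0.94 at 12 h (limma adjusted p = 0.532 and 0.773). None of these passed the test.

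The exception was the knockout at 24 h, where Cxcl1 was lower with CCl4. Vehicle livers held 7714.1, 1220.4, 2029.6, 2158.6 and 2033.2, and CCl4 livers 1482.8, 189.9, 1223, 57.6 and 55.5. Of the CCl4 livers, 3 were below 200 and the other two overlapped the lowest vehicle liver. The change was -3.23 ± 0.84 (limma adjusted p = 0.00118).

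Much of the variation in Cxcl1 was in the oil-injected livers. At 12 h the wild-type vehicle livers were 130.4, 4302.1, 3215.2, 7331.7 and 4456, and the 4 knockout vehicle livers used were 1408.2, 97.2, 6700.7 and 6451.9. A single vehicle liver in each genotype was thus far below the rest, wild-type replicate 1 and knockout replicate 3. By 7 days wild-type vehicle livers held 50.7 to 448 and knockout vehicle livers 122.3 to 1297. Cxcl1 differed between times in vehicle livers in both genotypes (limma adjusted p = 1.91e-05 in wild type and 0.00165 in knockout).

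Of the CXCR3 ligands, Cxcl10 was called from 4 h and Cxcl9 from 12 h. At 4 h Cxcl10 was 134.3, 103, 131.5, 154.2 and 172.9 in wild-type vehicle livers and 770.5, 857.2, 497.6, 560.4 and 679.7 in CCl4 livers, with no overlap. The change was 2.26 ± 0.40 in wild type and 2.42 ± 0.40 in knockout (limma adjusted p = 3.62e-06 and 1.14e-06). Cxcl9 changed by -0.03 ± 0.42 and -0.71 ± 0.42 at that time (limma adjusted p = 0.967 and 0.186), and its groups overlapped.

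At 12 h Cxcl10 had its highest levels. Wild-type vehicle livers held 113.2, 71.2, 45.8, 87.7 and 95 and CCl4 livers 1094.2, 1200, 1365.6, 1532.2 and 1473.3, a tight group. The 4 knockout vehicle livers held 258.4, 235.2, 42.3 and 137.8 and the CCl4 livers 4910.4, 2174, 1988.3 and 2019.9, of which replicate 1 was far above the rest. The changes were 4.05 ± 0.40 and 4.21 ± 0.45, or 16.5-fold and 18.5-fold (limma adjusted p = 2.43e-13 and 1.01e-11). Cxcl9 had joined by then, with 2.12 ± 0.42 in wild type and 2.46 ± 0.47 in knockout (limma adjusted p = 1.79e-05 and 1.54e-05).

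At 24 h Cxcl9 had the larger change of the pair in knockout livers and Cxcl10 in wild type. Cxcl9 was 182.4, 162.3, 198.6, 428.2 and 181.5 in knockout vehicle livers and 4696.6, 4397.9, 3615.2, 578.1 and 3645.3 in CCl4 livers. Replicate 4 with CCl4 was far below the other CCl4 livers and still stood above every vehicle liver. The change in Cxcl9 was 3.67 ± 0.42 in knockout and 2.74 ± 0.42 in wild type (limma adjusted p = 1.45e-10 and 1.67e-07). Cxcl10 gave 2.51 ± 0.40 and 3.24 ± 0.40 in the same livers (limma adjusted p = 6.02e-07 and 7.66e-10), with CCl4 values from 116.3 to 1138 in knockout and 341.9 to 1602 in wild type.

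**Figure D2:**
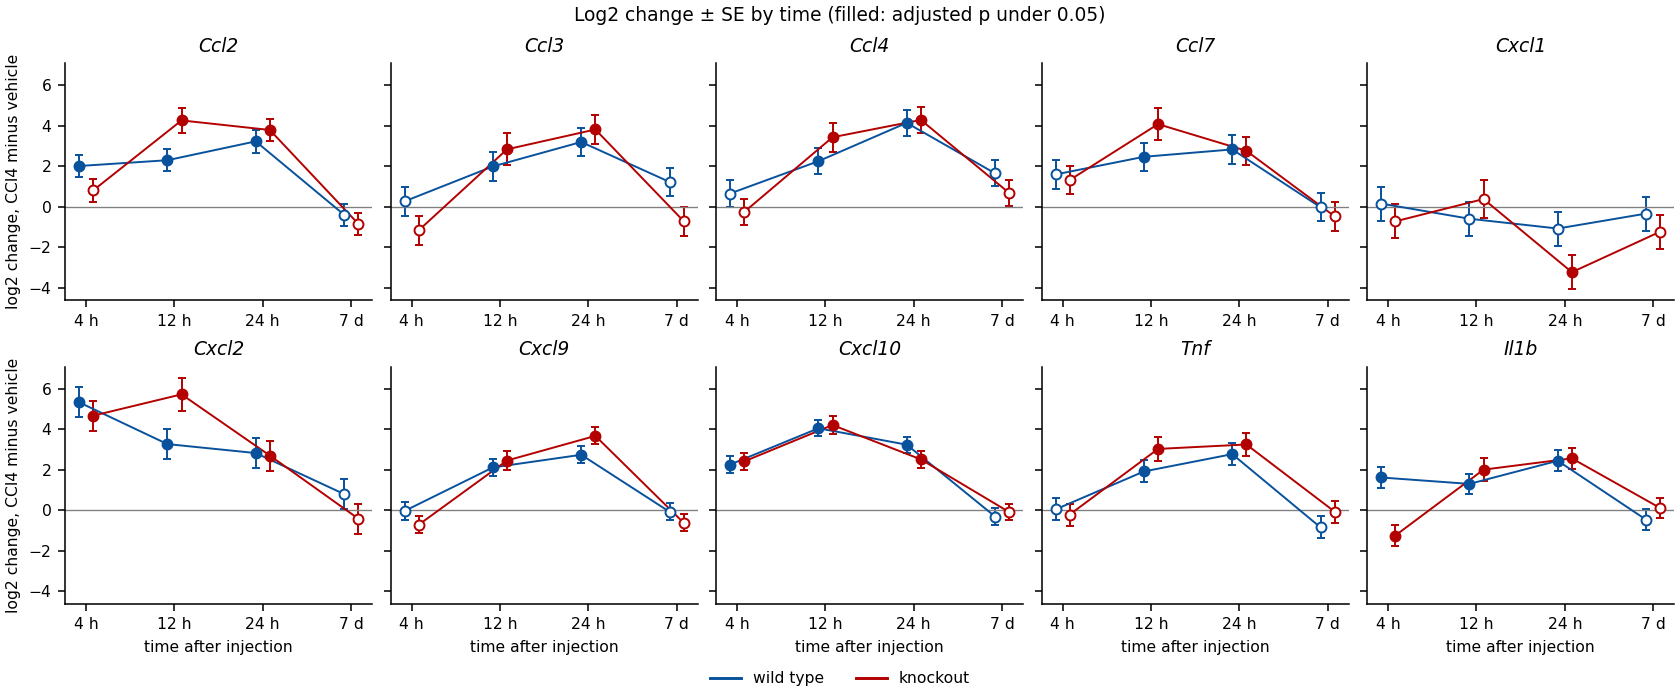
Log2 change of CCl4 against vehicle for each gene at 4 h, 12 h, 24 h and 7 days in each genotype, with standard errors. Filled symbols have an adjusted p under 0.05. Cxcl2 is highest at 4 h in wild type (5.33), Cxcl10 at 12 h (4.05) and Ccl4 at 24 h (4.13), and Cxcl1 is filled only in knockout livers at 24 h (-3.23).

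The monocyte-directed genes Ccl2 and Ccl7 rose by 12 h in both genotypes. At 4 h in wild type, Ccl2 was 45.2, 32.2, 65.8, 59.4 and 51.6 with vehicle and 401.2, 328.2, 74.6, 367.6 and 90.8 with CCl4. CCl4 replicates 3 and 5 were only slightly above the highest vehicle liver, and the other 3 were far above it. The change was 2.00 ± 0.55 (limma adjusted p = 0.00207). In knockout livers at 4 h it was 0.80 ± 0.55 (limma adjusted p = 0.262). Ccl7 gave 1.59 ± 0.70 and 1.31 ± 0.70 at 4 h (limma adjusted p = 0.0594 and 0.134), and in wild type it passed the test without CCl4 replicate 3 or 5 or without vehicle replicate 4 (limma adjusted p = 0.03 to 0.043). Quantile normalization also gave a call for Ccl7 in wild type (limma adjusted p = 0.0435).

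With the 2 knockout livers left out, the knockout at 12 h gave the largest Ccl2 change. The vehicle livers used held 77.3, 22.6, 62.6 and 50.3 and the CCl4 livers used 915.9, 1342.8, 862.8 and 746.5, with a wide gap between them. That was 4.25 ± 0.62, 19.1-fold, against 2.29 ± 0.55 in wild type (limma adjusted p = 4.39e-08 and 0.000304). With all 80 libraries the knockout change was 2.61, below the 3.22 in wild type and 3.78 in knockout at 24 h. The wild-type vehicle livers ranged more widely at 12 h, from 25.1 to 277.9, and overlapped the CCl4 livers at 217.7 to 543. Ccl7 changed by 4.07 ± 0.78 in knockout and 2.46 ± 0.70 in wild type (limma adjusted p = 1.6e-05 and 0.00206).

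At 24 h Ccl2 stood at 3.22 ± 0.55 in wild type and 3.78 ± 0.55 in knockout, and Ccl7 at 2.82 ± 0.70 and 2.75 ± 0.70 (limma adjusted p from 7.99e-08 to 0.000965). Both wild-type values rest on the vehicle livers. Ccl2 was 45.4, 115.7, 30.5, 24.8 and 340.9 in them, and Ccl7 was 25.5, 68.8, 9.8, 21.1 and 293.6. Replicate 5 was the highest for both genes and lay within the range of the CCl4 livers, which held 310.3 to 1376.3 of Ccl2 and 114 to 723.4 of Ccl7.

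Replicate 5 is also the only wild-type vehicle liver at 24 h whose mouse number in the labels is 7000 or above, and all 5 CCl4 livers come from such mice. Without the lower-numbered wild-type mice, of which 4 were in this vehicle group, the changes were 0.90 for Ccl2 and 0.01 for Ccl7 (limma adjusted p = 0.516 and 0.997). A vehicle group of 1 liver is then assumed to vary like the others. The labels do not say what the numbers mean, and in wild type at 24 h mouse number and treatment largely cannot be told apart. Such lower-numbered mice also gave 2 of 5 wild-type CCl4 livers at 12 h. At 7 days they gave 4 of 5 wild-type CCl4 livers and 2 of 5 vehicle livers. No knockout mouse had such a number, so comparisons with wild type and between wild-type times also differ in mouse number.

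The CC chemokines Ccl3 and Ccl4 came later. At 4 h neither passed the test, with 0.26 ± 0.71 and 0.65 ± 0.65 in wild type and -1.17 ± 0.71 and -0.26 ± 0.65 in knockout (limma adjusted p = 0.197 to 0.806). At 12 h Ccl4 changed by 2.24 ± 0.65 in wild type and 3.42 ± 0.72 in knockout, and Ccl3 by 1.98 ± 0.71 and 2.83 ± 0.79 (limma adjusted p from 7.26e-05 to 0.0137). The Ccl3 call was lost in wild type without vehicle replicate 1 or CCl4 replicate 1 (limma adjusted p = 0.103 and 0.0521). It was also lost in knockout without vehicle replicate 3, in which Ccl3 was listed at 0 (limma adjusted p = 0.0588).

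Ccl4 had the largest change of the 10 genes at 24 h in both genotypes. The wild-type vehicle livers held 6.6, 12.6, 1.1, 6 and 15.5 and the CCl4 livers 273.9, 159.6, 206.5, 53.5 and 82. The knockout livers held 1.1, 0, 5.1, 5.1 and 4.5 with vehicle and 173.4, 45.7, 147.3, 17.1 and 53.1 with CCl4. All CCl4 livers were above all vehicle livers, although the vehicle values are within a few times the limit that a count of 0 allows. The changes on the log2(value + 1) scale were 4.13 ± 0.65 and 4.28 ± 0.65 (limma adjusted p = 2.46e-07 and 1.85e-07), and 3.01 in wild type without the lower-numbered mice (limma adjusted p = 0.0565). Ccl3 changed by 3.19 ± 0.71 and 3.81 ± 0.71 (limma adjusted p = 0.000133 and 1.18e-05), and by 2.07 without those mice (limma adjusted p = 0.251).

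Tnf was not called until 12 h. At 4 h Tnf changed by 0.05 ± 0.54 in wild type and -0.21 ± 0.54 in knockout (limma adjusted p = 0.958 and 0.804). At 12 h it changed by 1.92 ± 0.54 and 3.03 ± 0.61, and at 24 h by 2.77 ± 0.54 and 3.25 ± 0.54 (limma adjusted p from 1.53e-06 to 0.00194). At 24 h the wild-type vehicle livers held 4.4, 32.7, 12, 6 and 9 and the CCl4 livers 118.5, 75.6, 108.6, 41.2 and 57.5, and no liver overlapped. The Tnf call in wild type at 24 h held without the lower-numbered mice (2.92, limma adjusted p = 0.0212).

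Il1b moved in opposite directions in the genotypes at 4 h. Wild-type livers held 69, 92.8, 64.9, 114.1 and 120.1 with vehicle and 394.5, 274.4, 216.7, 308.8 and 225.7 with CCl4. Knockout livers held 164.4, 483.6, 418.5, 319.2 and 425 with vehicle and 159.8, 241, 227.3, 81.7 and 83 with CCl4. The knockout vehicle livers were thus all above the wild-type vehicle livers, and 4 of the 5 were above every knockout CCl4 liver. The change was 1.62 ± 0.51 in wild type and -1.24 ± 0.51 in knockout (limma adjusted p = 0.00717 and 0.0461).

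The fall of Il1b in knockout livers was a fragile call. It was lost when any 1 of 7 livers was left out, namely CCl4 replicates 1, 4 and 5 and vehicle replicates 2 to 5 (limma adjusted p = 0.0581 to 0.126). It was also lost with all 80 libraries in the fit (limma adjusted p = 0.0618). The difference of the Il1b effect between genotypes was -2.87 ± 0.72, with a 95% interval from -4.31 to -1.42 (limma adjusted p = 0.454 over all genes). With only the 4 groups at 4 h in the fit it passed the test (limma adjusted p = 0.0196).

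At 12 h and 24 h Il1b was higher with CCl4 in both genotypes, by 1.31 ± 0.51 and 2.45 ± 0.51 in wild type and 2.01 ± 0.57 and 2.56 ± 0.51 in knockout (limma adjusted p from 3.57e-05 to 0.0242). At 12 h the wild-type CCl4 livers held 250.7, 455.2, 71.7, 68.6 and 204.7 and overlapped the vehicle livers at 24.8 to 203.2. That call was lost without CCl4 replicate 1, 2 or 5 or vehicle replicate 1 or 4 (limma adjusted p = 0.0508 to 0.121), and with limma voom on recovered reads or only the groups compared in the fit (adjusted p = 0.0539 and 0.106). At 24 h the change in wild type was 1.45 without the lower-numbered mice (limma adjusted p = 0.246).

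Counted together, 4 of the 10 genes were higher with CCl4 in wild type at 4 h (Cxcl2, Cxcl10, Ccl2 and Il1b), against 23.1% of all genes tested. At 12 h and at 24 h 9 of 10 were higher, all but Cxcl1, against backgrounds of 29% and 26.2%. In knockout livers at 4 h, Cxcl2 and Cxcl10 were higher (2 of 10, background 21.1%) and Il1b was lower (1 of 10, background 17.7%). With only the groups compared in the fit, Ccl2 and Ccl7 were also higher and Cxcl1 lower in knockout livers at 4 h (limma adjusted p = 0.0377, 0.0269 and 0.0126; 24% of all genes higher and 22% lower). Again 9 of 10 were higher at 12 h (background 23.6%) and at 24 h (background 21.1%), and at 24 h Cxcl1 was lower (background 23%). The median log2 change of the 10 genes was 1.12, 2.18 and 2.82 at 4 h, 12 h and 24 h in wild type and -0.24, 3.23 and 3.00 in knockout. Over all genes tested the medians lay between -0.05 and 0.04.

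These counts depended on the libraries used. With all 80 libraries, 6 of 10 genes were higher in knockout livers at 12 h (10.2% of all genes), with Ccl2 at 2.61, Cxcl2 at 3.87 and Cxcl10 at 2.40. Ccl3, Cxcl9 and Il1b were no longer called (1.94, 1.03 and 1.28, limma adjusted p = 0.0572, 0.18 and 0.0861). Without the lower-numbered wild-type mice, 3 of 10 were higher at 24 h (8.48% of all genes), namely Cxcl9 (3.34), Cxcl10 (3.52) and Tnf (2.92). At 12 h Ccl3, Ccl4 and Il1b were then lost in wild type (limma adjusted p = 0.164, 0.0597 and 0.38), which leaves 6 of 10 (28.7% of all genes). In wild type at 12 h, 7 of 10 were higher without vehicle replicate 1 (28.2% of all genes) or without CCl4 replicate 1 (28.5%). The count in knockout was 8 at 12 h without vehicle replicate 3 and 2 higher and 0 lower at 4 h when the Il1b call was lost. With single livers left out, 5869 to 7206 of 14558 genes were called in either direction in knockout at 12 h. At 4 h 5091 to 5628 were called.

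At 7 days none of the 10 genes was called by limma in either genotype. In wild type, 4 of 5 CCl4 livers and 2 of 5 vehicle livers at this time came from mice numbered below 7000. The background was 0.055% in wild type and 0.694% in knockout. At an unadjusted p under 0.05 there was 1 gene in wild type, Ccl4, and 0 in knockout. Ccl4 was 2.4, 2.8, 1.1, 1.2 and 4.9 in wild-type vehicle livers and 8.8, 7.8, 14, 5.4 and 11.8 in CCl4 livers, a change of 1.64 ± 0.65 (limma adjusted p = 0.167). Those vehicle values lie at about the limit that a count of 0 allows, although all CCl4 livers were higher. Ccl3 did not overlap in wild type either, with 2.2 to 4.9 in vehicle and 5.8 to 14.5 in CCl4 livers. The median change of the 10 genes was -0.19 in wild type and -0.44 in knockout.

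The CCl4 effect differed between times for 8 of 10 genes in wild type, all but Ccl3 and Cxcl1 (background 62.9%; without the lower-numbered mice Ccl2, Ccl4, Ccl7 and Il1b were lost, against a background of 41.2%), and for 9 of 10 in knockout, all but Cxcl1 (background 51.7%). In wild type this Ccl7 call was lost with all 80 libraries, voom or only the groups compared (limma adjusted p = 0.08, 0.161 and 0.0736). The Cxcl2 call was lost with voom (limma adjusted p = 0.116). Ccl3 was gained with a pseudocount of 8, quantile normalization, voom or only the groups compared (limma adjusted p = 0.00747 to 0.0481). Vehicle livers also differed between times. In wild type 6 genes did (Ccl3, Ccl4, Ccl7, Cxcl1, Cxcl2 and Cxcl10; background 38.9%) and in knockout 7 did (Ccl3, Ccl4, Cxcl1, Cxcl9, Cxcl10, Tnf and Il1b; background 41.7%). With limma voom on recovered reads Ccl3, Ccl4 and Cxcl10 were lost in wild type (adjusted p = 0.104, 0.063 and 0.181; background 37.4%). Without the lower-numbered mice Ccl3 and Cxcl10 were lost (limma adjusted p = 0.1 and 0.192). In knockout vehicle livers Tnf was lost with a pseudocount of 8 and with voom (limma adjusted p = 0.0747 and 0.0712). Cxcl10 was lost there with voom (limma adjusted p = 0.0924). With only the groups compared Ccl2 was gained (limma adjusted p = 0.0201) and Ccl4 was not tested. Il1b shows the size of the differences between times in knockout vehicle livers. It held 164.4 to 483.6 normalized counts at 4 h and 14.3 to 55.1 at 24 h (limma adjusted p = 1.14e-06). In the order of its 16 groups, Ccl2 was highest in knockout CCl4 livers at 12 h (median 889.3) and lowest in knockout vehicle livers at 24 h (median 25.3). Groups were ordered by their mean log2 level in the 78 libraries used. Cxcl1 was highest in knockout vehicle livers at 4 h and lowest in wild-type CCl4 livers at 7 days. Of the 15 neighbouring pairs of groups in each gene's order, 12 to 15 did not differ beyond their spread.

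No difference between genotypes passed the test for any of the 10 genes. The difference of the CCl4 effect between genotypes was called by limma for 0 of 10 genes at each time. The background was 0.00687% at 4 h, 0% at 12 h, 0% at 24 h and 0.00687% at 7 days. At an unadjusted p under 0.05 there were 1, 2, 0 and 0 genes. The first was Il1b at 4 h, and at 12 h they were Ccl2 (1.96, interval from 0.31 to 3.61) and Cxcl2 (2.45, interval from 0.25 to 4.66). Both differences at 12 h depend on the 2 knockout livers left out. With all 80 libraries the knockout changes at 12 h were 2.61 for Ccl2 and 3.87 for Cxcl2. The wild-type changes at 12 h were 2.29 and 3.27. The intervals are wide: for Cxcl1 at 24 h the difference was -2.15, with an interval from -4.52 to 0.21, and for Cxcl10 at 4 h it was 0.16, from -0.98 to 1.29. A p that misses the threshold does not show that the genotypes respond alike.

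**Figure D3:**
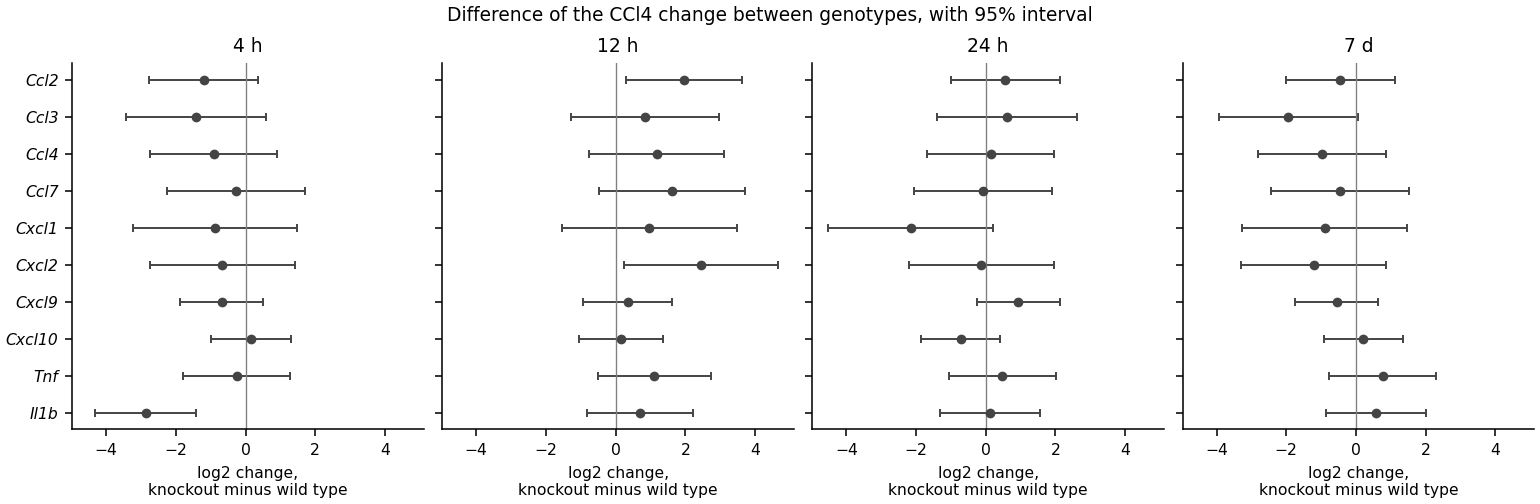
Knockout minus wild-type difference of the log2 CCl4 effect for each gene at each time, with 95% intervals. Il1b at 4 h (-2.87) and Ccl2 (1.96) and Cxcl2 (2.45) at 12 h have intervals that exclude 0 before adjustment over all genes. The values at 12 h are without the 2 left-out knockout livers and depend on that choice.

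Compared directly, knockout and wild-type CCl4 livers gave 0 of 10 calls by limma at 4 h (background 0.584%), 12 h (0.0206%), 24 h (0.0137%) and 7 days (0%). At an unadjusted p under 0.05 there were 0, 2, 2 and 0 genes. At 12 h Ccl2 and Cxcl10 were above wild type, by 1.33 ± 0.58 and 0.95 ± 0.43 (limma adjusted p = 0.49 and 0.494). Knockout CCl4 replicate 5 at 12 h, left out here, was far below the other knockout CCl4 livers for both genes. At 24 h Cxcl10 and Il1b stood at -1.09 ± 0.40 and -1.23 ± 0.51 (limma adjusted p = 0.633 and 0.714). In vehicle livers over all times 0 of 10 were called (background 0.282%), and 0 at an unadjusted p under 0.05.

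Livers of the same group differed from each other in a way that several of these genes shared. For each gene the deviation of log2(value + 1) from its group mean was taken in the 78 libraries, and all 45 pairs of genes were compared. Ccl2 and Ccl7, which are neighbours, gave the highest correlation (Pearson r = 0.842, Spearman rho = 0.807). It was 0.858 in wild-type and 0.816 in knockout livers, and 0.809 without the 2 libraries farthest from the median. Its permutation p, shuffling within groups, was 1e-05, the smallest that 100000 permutations can give, or 2.6e-05 after Benjamini-Hochberg adjustment over the 45 pairs for both r and rho.

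The other neighbours differed. Ccl3 and Ccl4 gave r = 0.597 and rho = 0.618 (0.667 without the 2 farthest libraries), and Cxcl9 and Cxcl10 gave r = 0.658 and rho = 0.603 (0.607), with the same permutation p = 1e-05 and adjusted permutation p = 2.6e-05. Cxcl1 and Cxcl2 gave r = 0.305 and rho = 0.224, with permutation p = 0.062 and 0.095 and adjusted permutation p = 0.082 and 0.12, and r = 0.186 without the 2 farthest libraries. Cxcl9 stood apart from the rest, with a median r of 0.09 with the 9 others against 0.63 for Ccl2. Over all 45 pairs r ran from -0.10 to 0.84 with a median of 0.46, and 32 pairs had an adjusted permutation p under 0.05. All genes of a pair share each library's depth and tissue piece. Pairs of other genes were not compared in this way, so the 32 of 45 cannot be read as particular to these genes.

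**Figure D4:**
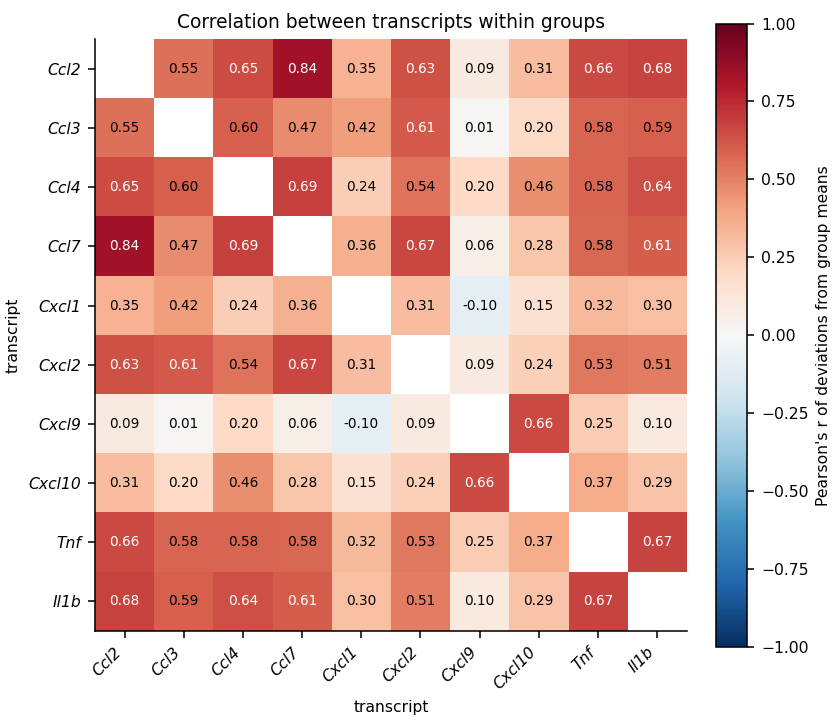
Pearson r between deviations from group means for the 45 pairs of genes over 78 libraries. Ccl2 with Ccl7 is highest (0.842), and the row of Cxcl9 is pale except for Cxcl10 (0.658).

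The genes whose pattern over the 78 libraries was most like that of each chemokine or cytokine were found among 11422 genes with a group mean of at least 100 normalized counts. For Cxcl2 they were Ier3 (Pearson r = 0.925), Cd14 (0.909) and Btbd10 (0.899), and for Cxcl1 Socs3 (0.905), Slc39a14 (0.898) and Junb (0.882). Cxcl10 was most like Nfkb2 (0.895), Cd274 (0.891) and Relb (0.884), and Cxcl9 most like Gbp2 (0.890), Gbp4 (0.814) and Gsta1 (0.770). Slc7a11 was first for both Ccl2 (0.885) and Ccl7 (0.862) and second for Ccl4 (0.797) after Mmp13 (0.799). Ccl3 was most like Cxcr2 (0.792), Tnf like Acod1 (0.839), and Il1b like Plek (0.842), Il1a (0.832) and Nlrp3 (0.784). These correlations include the differences between groups and describe likeness only.

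The receptors of these ligands were measured in the same livers. Ccr2, the receptor of CCL2 and CCL7 on monocytes, was called only at 24 h, with 1.58 ± 0.43 in wild type and 2.33 ± 0.43 in knockout (limma adjusted p = 0.00166 and 1.16e-05). Ccr1 gave 2.19 ± 0.68 and 2.77 ± 0.68 and Cxcr2 1.57 ± 0.56 and 2.22 ± 0.56 at 24 h (limma adjusted p from 0.000609 to 0.0153). Cxcr3, the receptor of CXCL9 and CXCL10, was called at no time. Ackr2, a decoy receptor that clears CC chemokines, went from 64.2 to 1930 normalized counts in wild type and from 75.1 to 1795 in knockout at 4 h. That was 4.87 ± 0.30 and 4.58 ± 0.30 (limma adjusted p = 1.16e-21 and 2.18e-20). By 24 h it was lower in wild type, at -1.14 ± 0.30 (limma adjusted p = 0.00122).

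Background shares higher at 4 h, 12 h and 24 h were 23.1%, 29% and 26.2% in wild type. In knockout they were 21.1%, 23.6% and 21.1%. Genes called in either direction numbered 6349, 8505 and 7458 of 14558 in wild type and 5651, 6805 and 6424 in knockout. These backgrounds hold for the receptor list here and for the lists below. In wild type at 24 h mouse number and treatment largely cannot be told apart. No list was tested without the lower-numbered mice. Over the list of chemokine receptors, 18 of 23 were tested. In wild type 2 were higher and 0 lower at 4 h, 1 and 3 at 12 h, and 7 and 2 at 24 h. In knockout 1 and 0, 1 and 1, and 8 and 0 were called at these times. The list's median log2 change was 0.21, -0.31 and 0.66 in wild type and -0.31, 0.52 and 0.69 in knockout. Cxcr4 was among those higher at 24 h (2.40 ± 0.41 and 2.73 ± 0.41, limma adjusted p = 1.61e-06 and 1.65e-07).

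Chemokines outside the 10 were called in both directions. Of 16 further CC chemokines 7 were tested. In wild type 0 were higher and 2 lower at 4 h, 2 and 1 at 12 h, and 3 and 1 at 24 h, and in knockout 0 and 0, 3 and 1, and 3 and 1. The list's median log2 change was -0.05, 0.23 and 0.43 in wild type and -0.35, 0.36 and 0.94 in knockout. Ccl22, a ligand of CCR4 on T cells, was 3.56 ± 0.60 in wild type and 3.70 ± 0.60 in knockout at 24 h (limma adjusted p = 1.32e-06 and 9.66e-07). Ccl5 was 2.11 ± 0.40 and 2.04 ± 0.45 at 12 h (limma adjusted p = 8e-06 and 0.00013). Of 13 further CXC, CX3C and XC chemokines 9 were tested. At 4 h, 12 h and 24 h, 2 were higher and 1 lower, 1 and 1, and 3 and 1 in wild type, and 0 and 1, 1 and 1, and 3 and 1 in knockout. The list's medians were 0.21, 0.15 and 0.45 in wild type and 0.31, -0.06 and 0.58 in knockout. Cxcl12, which is made by resident stromal and endothelial cells, was lower at 4 h, 12 h and 24 h in both genotypes, by -1.18 to -1.97 in wild type and -1.38 to -1.58 in knockout. Xcl1, a product of NK and T cells, rose at 12 h by 2.30 ± 0.43 and 2.20 ± 0.48 (limma adjusted p = 5.28e-06 and 0.000111).

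TNF and IL-1beta act through NF-kB. Of 15 NF-kB subunits and inhibitors, 11 were higher and 0 lower in wild type and 9 and 0 in knockout at 4 h. The list's medians were 0.91 and 0.73, beside -0.03 and -0.00 over all genes. Rela, a subunit, changed by 1.32 ± 0.13 and 1.47 ± 0.13 and Nfkb1 by 1.65 ± 0.17 and 1.83 ± 0.17 (limma adjusted p from 3.08e-15 to 9.97e-13). At 12 h 6 were higher and 1 lower in wild type and 9 and 1 in knockout, and at 24 h 9 and 1, and 7 and 3.

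Of the 14 genes of TNF receptors and proximal signalling, 5 were higher and 2 lower in wild type at 4 h, and 3 and 3 in knockout. Tnfrsf1b, the inducible TNF receptor, rose at 4 h by 1.32 ± 0.17 and 1.27 ± 0.17 (limma adjusted p = 1.96e-09 and 9.28e-09). Tnfrsf1a, the widely expressed one, was 0.02 ± 0.15 and -0.20 ± 0.15 at 4 h and lower in knockout at 24 h (-0.54 ± 0.15, limma adjusted p = 0.00321). At 12 h 3 were higher and 2 lower in wild type and 4 and 2 in knockout, and at 24 h 4 and 0, and 2 and 5.

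Of 16 IL-1 family genes, 3 were higher and 2 lower in wild type at 4 h, 1 and 3 at 12 h, and 10 and 2 at 24 h. Knockout livers gave 4 and 3, 5 and 2, and 5 and 4. The decoy receptor Il1r2 was 2.22 ± 0.70 and 2.30 ± 0.70 at 24 h (limma adjusted p = 0.00617 and 0.00566). Il1rap, the shared co-receptor, was lower at every time to 24 h in both genotypes, by up to -1.78 ± 0.19 in wild type at 12 h. The signalling receptor Il1r1 was called once, lower in knockout at 24 h (-1.47 ± 0.43, limma adjusted p = 0.00361).

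Of 11 interferon-gamma signalling genes 10 were tested, and at 12 h 6 were higher and 1 lower in wild type and 7 and 1 in knockout. Ifngr1, a receptor subunit, rose by 1.59 ± 0.15 and 1.42 ± 0.17 at that time (limma adjusted p = 5.01e-14 and 2.28e-10). Stat2 was lower at 4 h, 12 h and 24 h in both genotypes, by -0.46 to -0.87. At 4 h the list gave 4 higher and 1 lower in wild type and 3 and 2 in knockout, and at 24 h 5 and 1, and 4 and 3. Among 9 regulators of cytokine mRNA decay, 7 were higher and 0 lower in wild type at 4 h and 5 and 0 in knockout. At 12 h 4 were higher and 2 lower in wild type and 3 and 1 in knockout, and at 24 h 4 and 1, and 2 and 1. N4bp1, an endoribonuclease, rose at 4 h by 1.04 ± 0.14 and 1.17 ± 0.14 (limma adjusted p = 2.45e-09 and 8.73e-11).

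Markers of several cell types were also called in these whole-liver libraries, in both directions. A change in cell number and a change in RNA per cell cannot be told apart there. The backgrounds, and the limit on wild type at 24 h, are those given above with the receptor list. Of 11 tested markers of monocytes and infiltrating macrophages, 8 were higher and 0 lower in wild type at 24 h and 9 and 0 in knockout. Their summed level in wild type at 24 h was 8414 to 24737 normalized counts with CCl4 and 4105 to 10547 with vehicle. In knockout livers it was 5266 to 9578 and 1590 to 3913. At 4 h 1 was higher in wild type and 0 in knockout, and at 12 h 2 and 6 were. Gpnmb, a macrophage gene, changed by 5.58 ± 0.96 and 6.27 ± 0.96 at 24 h (limma adjusted p = 1.89e-06 and 2.66e-07).

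Of 8 tested neutrophil markers, 0 were higher and 1 lower at 4 h and at 12 h in either genotype. At 24 h 2 were higher in both, Cxcr2 and Csf3r, and 1 was lower in knockout, Elane. The 2 of 8 higher are near the share of all genes, 26.2% in wild type and 21.1% in knockout. The summed level of the neutrophil markers in wild type at 4 h was 643.8 to 1541 with CCl4 and 354.9 to 1212 with vehicle. In knockout it was 390.6 to 788.0 and 761.3 to 1316. Of 8 Kupffer cell markers, 0 were called at 4 h, and 6 in wild type and 5 in knockout were lower at 12 h, among them Clec4f (-1.08 ± 0.33 and -1.12 ± 0.36). At 24 h 3 were lower in wild type, and 1 was higher and 2 lower in knockout. Of 9 hepatocyte markers, 5 in wild type and 3 in knockout were lower at 4 h, 9 and 8 at 12 h, and 7 and 7 at 24 h. Cyp2e1, the enzyme that activates CCl4, was at -3.55 ± 0.24 and -3.63 ± 0.24 at 24 h (limma adjusted p = 2.39e-19 and 9.06e-20).

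Of 11 tested T and NK cell markers, 2 were higher in wild type at 24 h and 2 in knockout at 12 h, and B cell markers gave no call to 24 h. Sinusoidal endothelial markers (8) gave no call at 4 h, 8 lower in wild type and 3 in knockout at 12 h, and 4 and 0 lower at 24 h. Stellate cell markers (8) gave no call at 4 h and 3 and 1 lower at 12 h. At 24 h 2 were higher and 2 lower in wild type and 2 and 1 in knockout. Cholangiocyte markers (3 of 4 tested) gave 1 higher in each genotype at 4 h and at 12 h, Epcam, and none at 24 h. At 7 days no gene of these lists was called, and no marker was at 0 in all livers of a group at any time. The part of cell makeup in the changes of the 10 genes was not tested.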

How the data were processed

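The authors deposited 1 table of normalized read counts, a signal in which each library's counts were divided by its size factor. Per the submitters' processing notes, STAR, HTSeq and DESeq2 were used with the GRCm38 build; versions are not given in the sources used here. All values were whole multiples of 1 step per library (100% within a tolerance of 0.01), which gave each library's read total. Values were analysed as log2(value + 1) with limma 3.58.1 in R 4.3.3: genes with at least 10 in at least 5 libraries (14558 of 14560), 16 group means, moderated variances with a trend, and Benjamini-Hochberg adjustment, called at 0.05. Replicates are separate mice, and no 2 libraries of a group were identical (lowest chi-square per degree of freedom 26.4).

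All 10 genes, receptors and up to 3 genes per list with the smallest adjusted p were named; 1 receptor is not reported here. The genes, lists and left-out libraries were chosen with earlier results of these data known. Exon lengths came from GENCODE. Every alternative is described in the closing section.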

Additional observations from a re-analysis of the deposited data

Results flagged for a closer look

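Dixon's test at 95% was applied to 160 sets of values of 1 gene in 1 group, as normalized counts and not as log2 values. A liver far from the rest of its group was found in 14 sets. The chance rate of about 1 in 20 assumes normally distributed values and independent sets. Most flagged values were high and the genes share the same livers, so that rate cannot be used to judge the 14. None of the 14 is explained here.

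In wild-type livers, vehicle replicate 5 at 24 h was high for Ccl2 (340.9 normalized counts) and Ccl7 (293.6), and vehicle replicate 2 at 24 h was high for Tnf (32.7). CCl4 replicate 2 at 7 days was high for Ccl2 (67), CCl4 replicate 1 at 12 h for Ccl7 (378.6) and vehicle replicate 4 at 4 h for Cxcl2 (22.5). In knockout livers, CCl4 replicate 3 at 4 h was high for Ccl7 (110.2) and Cxcl10 (1959.7). CCl4 replicate 1 at 12 h was high for Cxcl10 (4910.4). At 24 h vehicle replicate 1 was high for Cxcl1 (7714.1), vehicle replicate 4 was high for Cxcl9 (428.2) and CCl4 replicate 4 was low for Cxcl9 (578.1). At 7 days vehicle replicate 1 was high for Ccl7 (31.3) and vehicle replicate 2 for Cxcl2 (73.4).

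Knockout vehicle replicate 1 at 12 h was left out of the tests because it stood with the other treatment. High values of genes raised by CCl4 follow from that choice, and the share over all genes was not counted. This liver lay above the other 4 vehicle livers of its group for 9 of the 10 genes. Its values, with the highest of the other 4 livers in brackets, were 854.5 (77.3) for Ccl2, 59.3 (20.5) for Ccl3, 97 (21.7) for Ccl4 and 265.7 (37.4) for Ccl7. They were 199.6 (29) for Cxcl2, 4934.1 (1275.3) for Cxcl9 and 1852.9 (258.4) for Cxcl10. Tnf stood at 84 (14) and Il1b at 265.7 (105.1). Cxcl1, at 1197.4, lay within the range of the others.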

How the results depend on the processing

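The edgeR test planned for recovered reads was not run, and limma voom on those reads, chosen after seeing the data, took its place. The alternatives were a pseudocount of 8, no filter, quantile normalization, all 80 libraries, only the groups compared, the wild-type mice numbered below 7000 left out, voom, and each liver left out in turn.

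The number of the 10 genes called changed by over 1.5 times in these cases. For CCl4 against vehicle in wild type at 24 h it went from 9 to 3 without mice numbered below 7000, and in knockout at 4 h from 3 to 6 with only the groups compared. For the CCl4 effect between genotypes at 4 h it went from 0 to 1 with only the groups compared. For vehicle livers between times in wild type it went from 6 to 3 with voom, and in wild type for the CCl4 effect compared over times from 8 to 4 without mice numbered below 7000. Leaving out single livers gave 4 to 5 genes at 4 h, 7 to 9 at 12 h and 9 at 24 h in wild type, and 2 to 3, 8 to 9 and 10 in knockout. For vehicle livers between times it gave 4 to 7 in wild type and 6 to 7 in knockout, and for the CCl4 effect between times 7 to 9 and 9 to 10. It gave 0 in every other comparison.

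Values that were called in no fit changed sign in some fits. Cxcl9 in wild type at 4 h was 0.0079 with voom, Ccl7 in wild type at 7 days 0.039 with a pseudocount of 8, Cxcl9 in wild type at 7 days 0.61 without mice numbered below 7000, and Tnf in knockout at 7 days 0.075 with voom. With single livers left out, the wild-type changes at 4 h ran from -0.016 to 0.45 for Ccl3, -0.16 to 0.39 for Cxcl1, -0.21 to 0.15 for Cxcl9 and -0.20 to 0.39 for Tnf. At 7 days they ran from -0.30 to 0.24 for Ccl7, -0.70 to 0.077 for Cxcl1 and -0.26 to 0.21 for Cxcl9. The knockout changes ran from -0.63 to 0.16 for Ccl4 and -0.55 to 0.020 for Tnf at 4 h and from -0.96 to 1.08 for Cxcl1 at 12 h. At 7 days they ran from -0.89 to 0.014 for Ccl7, -1.04 to 0.32 for Cxcl2, -0.19 to 0.11 for Cxcl10, -0.54 to 0.21 for Tnf and -0.14 to 0.30 for Il1b.

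Counts over all genes tested also moved. CCl4 against vehicle called 7458 genes in wild type at 24 h and 2743 without mice numbered below 7000, and 6805 in knockout at 12 h and 2397 with all 80 libraries. In knockout at 24 h it called 6424, and 4266 with only the groups compared. At 7 days it called 8 genes in wild type, 21 with quantile normalization, 41 with voom, 0 without mice numbered below 7000 or with only the groups compared, and 1 to 855 with single livers left out. In knockout at 7 days it called 101, 193 with voom, 14 with only the groups compared and 6 to 286 with single livers left out. For vehicle livers between times in wild type 5667 became 3621, and for the CCl4 effect between times 9162 became 6004, both without mice numbered below 7000. Knockout against wild type in vehicle livers called 41 genes, 96 without those mice and 27 with voom. In CCl4 livers at 4 h it called 85, 55 with quantile normalization, 132 with only the groups compared and 34 to 90 with single livers left out. At 12 h it called 3, and 1 to 113 with single livers left out, 64 with all 80 libraries and 21 without mice numbered below 7000. At 24 h it called 2, 1 with the replicate block, 0 with quantile normalization and 0 to 351 with single livers left out. The CCl4 effect between genotypes at 24 h called 0 genes and 64 without mice numbered below 7000. The cause of these changes was not tested.

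The labels give no pairing of livers beyond a replicate number. Of 38 pairs of same-numbered livers 8 had a correlation of deviations over 0.1, and the median was -0.01. Livers with different numbers were not compared, so these values cannot show whether livers were paired. With a replicate block the number of the 10 genes called was 4, 9, 9 and 0 in wild type and 3, 9, 10 and 0 in knockout at 4 h, 12 h, 24 h and 7 days, as without it. Low counts limit Ccl3, Ccl4, Ccl7, Tnf and Cxcl2, whose vehicle values reach the limit that a count of 0 allows in some livers.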
